A study of Mus musculus with 6 samples.

Results

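The ion and anion solute carriers described here are the genes whose symbol places them in the Slc4, Slc8, Slc9, Slc12, Slc13, Slc20, Slc24, Slc26 or Slc34 family of membrane transporters, chosen by symbol alone. Of 19938 genes with an array value, 56 met this rule. Another 4 genes that meet it were not analysed here. The rule also takes in 3 genes that are named after a carrier and are not carriers themselves: the scaffold genes Slc9a3r1 and Slc9a3r2, and Slc4a1ap.

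The samples were 6 colon tumours, 3 from each of 2 Dnmt1 genotypes. Dnmt1 encodes the maintenance DNA methyltransferase, which restores methyl groups on DNA after replication. The control tumours came from Dnmt1chip/+; ApcMin/+ mice, with 1 hypomorphic (chip) and 1 wild-type allele, and the hypomethylated tumours from Dnmt1chip/c; ApcMin/+ mice, with the chip allele over a conventional knockout allele (c). All the mice carried ApcMin, an Apc allele that predisposes to intestinal tumours through Wnt signalling, on an F1 hybrid background of C57BL/6 and 129Sv4. All were fed 2% (w/v) dextran sodium sulfate, a colitis-inducing tumour promoter, at the age of 6 weeks, and were sampled at 20 weeks. Both alleles are germline, so stromal and immune cells of a tumour carried them as well. In the sample descriptions the 3 hypomethylated tumours have the same leading number, as do 2 of the 3 control tumours. No label says that the tumours came from separate mice, and the p-values cover no more than the variation among these 6.

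Expression is given as log2 values, 1 per gene and array, that were deposited with the median of each probe set over the 6 arrays set to 0. They allow tumours to be compared and do not give the level of a gene. Where the groups do not overlap, this centring places the nearest tumours of the groups at equal distances from 0. The base of the logarithm is an inference from the values, and all folds depend on it. A difference is the mean of the hypomethylated tumours minus that of the control tumours, with its standard error (SE), and a gene was called where limma's p, adjusted by Benjamini-Hochberg for all genes, was under 0.05. Dnmt1 itself differed by -0.87 ± 0.06 (SE; adjusted p = 3.13e-04); the position of its probes relative to the mutated exons was not known, so this is no check of the genotypes. The arrays measured whole tumour pieces, so fewer cells of a type and less RNA per cell cannot be told apart.

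As background, the surface cells of the colon absorb sodium chloride by running a sodium-proton exchanger and a chloride-bicarbonate exchanger side by side in the apical membrane, and carbonic anhydrases supply both with their counter-ions. Slc9 genes encode the first kind of exchanger and Slc26a3 is the main gene of the second. Crypt cells can secrete chloride instead, which they take up from the blood side through the sodium-potassium-chloride cotransporter encoded by Slc12a2. Slc13, Slc20 and Slc34 carriers bring in sulfate, dicarboxylates and phosphate with sodium, most Slc4 carriers move bicarbonate, and Slc8 and Slc24 carriers exchange sodium for calcium.

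Of the 56 genes, 10 (17.9%) were called higher in the hypomethylated tumours and 7 (12.5%) lower; over all genes 10.7% were called higher and 21.3% lower. The difference had a median of 0.06 on the log2 scale over the 56, against -0.01 over all genes, and ran from -2.04 to 4.78. Of the called genes 6 (10.7% of the 56) were at least 2-fold higher, against 2.34% of all genes, and 1 (1.79%) was at least 2-fold lower, against 1.55%. The groups did not overlap, with the hypomethylated tumours above, in 13 genes (23.2%; 17.9% over all genes), and with them below in 9 (16.1%; 28.5% over all genes). The other 306 measured Slc genes had 66 called higher (21.6%) and 50 lower (16.3%). Without control replicate 1, and likewise without control replicate 2, those of the 56 called lower numbered 4. Over all genes 2792 and 3010 were called lower in these 2 fits, against 4256 in the main fit.

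**Figure D1:**
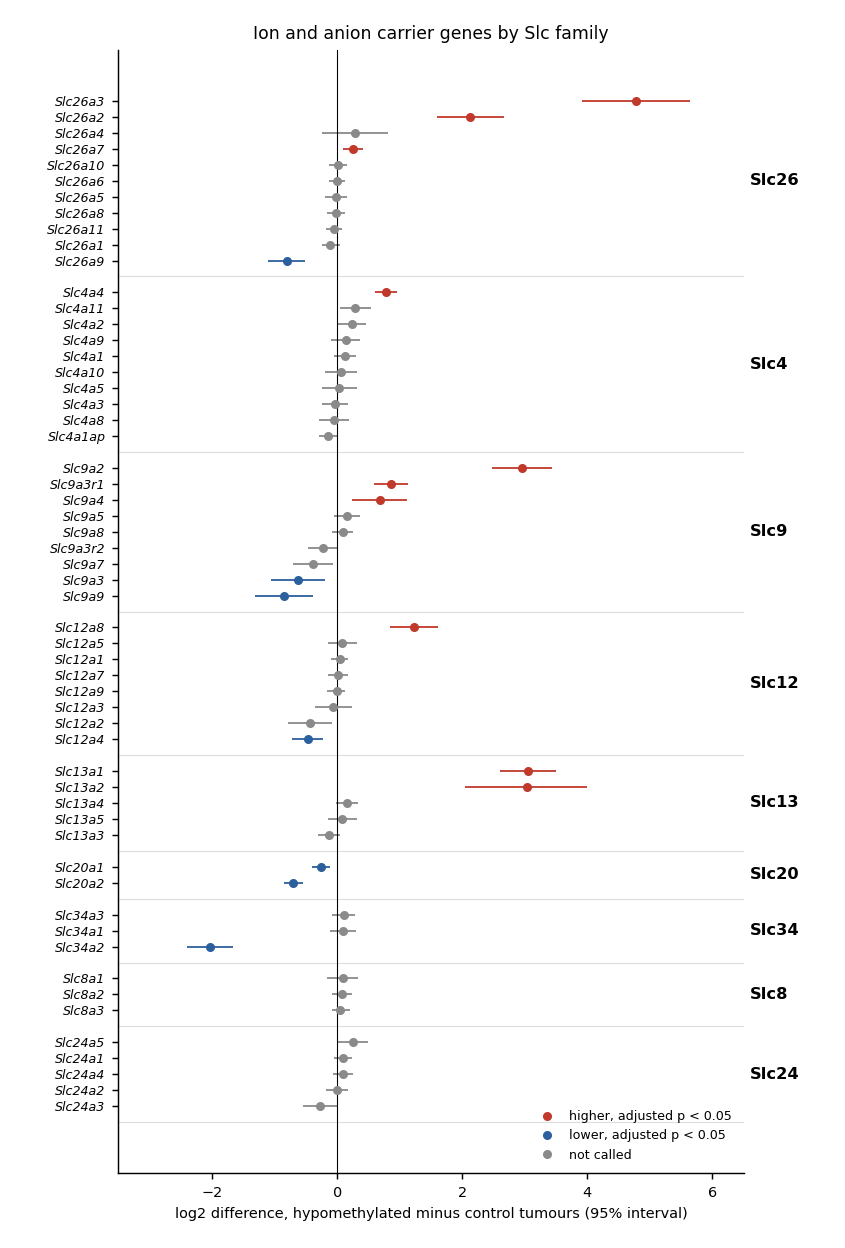
Difference between hypomethylated and control tumours (log2 scale, horizontal axis) for the 56 genes, grouped by Slc family and ordered by difference, with 95% intervals from limma. Red and blue points are genes called higher and lower; Slc26a3 stands farthest right at 4.78 and Slc34a2 farthest left at -2.04, and the Slc8 and Slc24 genes lie near 0.

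The study altered a DNA methyltransferase, so the sequences around the start sites of 4 called genes are shown: the largest increases and the largest decrease among called genes with a RefSeq window, and Slc9a3r1. Each window runs from 250 bases before to 50 bases after an annotated start on GRCm38.p6. It reads 5′ to 3′ on the gene's strand, with CpG dinucleotides, the sites that DNMT1 methylates, in capitals.
Slc26a3, chr12:31437969-31438268, plus strand: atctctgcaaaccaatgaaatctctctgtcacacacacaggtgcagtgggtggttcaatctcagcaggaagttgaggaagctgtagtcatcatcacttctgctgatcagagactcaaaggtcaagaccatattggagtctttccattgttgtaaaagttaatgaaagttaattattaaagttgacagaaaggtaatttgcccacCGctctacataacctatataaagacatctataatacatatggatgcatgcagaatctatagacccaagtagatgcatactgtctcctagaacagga
Slc13a2, chr11:78422185-78422484, minus strand: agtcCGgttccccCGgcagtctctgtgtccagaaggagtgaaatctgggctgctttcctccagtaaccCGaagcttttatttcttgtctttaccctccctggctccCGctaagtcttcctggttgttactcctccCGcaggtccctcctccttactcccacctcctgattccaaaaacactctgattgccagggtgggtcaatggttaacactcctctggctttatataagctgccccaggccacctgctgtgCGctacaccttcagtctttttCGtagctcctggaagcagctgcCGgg
Slc9a3r1, chr11:115163091-115163390, plus strand: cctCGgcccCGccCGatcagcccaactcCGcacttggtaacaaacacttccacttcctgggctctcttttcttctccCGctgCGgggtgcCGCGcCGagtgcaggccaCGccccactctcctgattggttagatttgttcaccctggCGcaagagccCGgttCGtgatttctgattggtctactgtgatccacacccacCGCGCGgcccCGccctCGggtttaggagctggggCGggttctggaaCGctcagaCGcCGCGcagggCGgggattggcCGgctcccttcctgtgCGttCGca
Slc34a2, chr5:53049103-53049402, plus strand: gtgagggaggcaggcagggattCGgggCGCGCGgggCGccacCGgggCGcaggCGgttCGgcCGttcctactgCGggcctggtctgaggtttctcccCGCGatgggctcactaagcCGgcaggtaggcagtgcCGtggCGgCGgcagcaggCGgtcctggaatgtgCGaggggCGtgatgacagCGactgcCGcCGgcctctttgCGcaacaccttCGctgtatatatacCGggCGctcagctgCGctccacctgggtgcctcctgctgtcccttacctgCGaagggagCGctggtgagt
The Slc26a3 window holds 1 CpG and the Slc13a2 window 8, whereas those of Slc9a3r1 and Slc34a2 hold 27 and 30. A high count is the pattern of a CpG island promoter, which is usually unmethylated whether or not the gene is active. Methylation was not measured here.

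Such windows were on hand for 45 of the 56 genes, of which 5 were called higher and 6 lower; where a gene had several, the richest in CpG was taken. Among those called higher, Slc26a3, Slc13a2 and Slc12a8 had fewer than 10 CpG and Slc9a3r1 and Slc4a4 had 27 and 50. Among those called lower, Slc26a9 and Slc9a9 had 5 and 6, and Slc12a4, Slc9a3, Slc34a2 and Slc20a1 had 20 to 36. Slc4a4 and Slc20a1 had 2 windows each, and the poorer ones held 3 and 6 CpG. Which start these tumours used was not known. The share with fewer than 10 CpG was 42.2% over the 45 genes and 35.7% over 15614 genes with a window. Over all genes it was 34.1% among those called higher and 13.3% among those called lower, and 54.1% and 32.9% among those called at least 2-fold higher and lower. The letters TTTATTG or TTTATGG, forms of the site read by the intestinal factor CDX2, were searched on both strands. This search covered every window of a gene, not only the richest in CpG. These letters occurred in 4 of the 45 genes (8.89%, against 6.55% of all genes with a window), and Slc12a8 was the called gene among them.

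**Figure D2:**
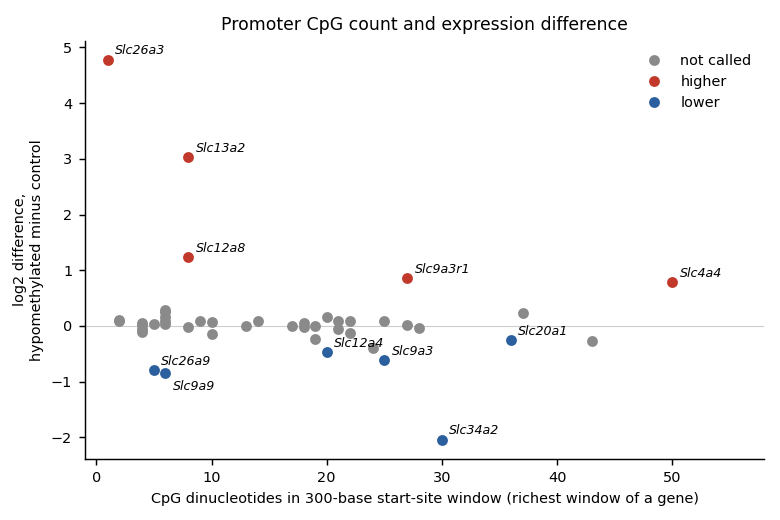
Number of CpG dinucleotides in the 300-base start-site window (horizontal axis; the richest window of a gene) against the log2 difference between hypomethylated and control tumours (vertical axis) for 45 genes. Slc26a3, with 1 CpG, is at the top left and Slc34a2, with 30, at the bottom; genes that were not called lie along 0 over the whole range of counts.

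The Slc26 family of anion exchangers and channels had 11 measured genes, of which 3 were called higher and 1 lower. Beside this count and those of the families below stand 10.7% called higher and 21.3% called lower over all genes. Slc26a3, the chloride-bicarbonate exchanger whose loss causes congenital chloride diarrhoea, had values of -2.56, -2.78 and -1.73 in control tumours 1 to 3 and 1.73, 2.94 and 2.60 in hypomethylated tumours 1 to 3. The groups were 3.47 apart at their nearest, 2.87 times the wider of the ranges within a group. Slc26a3 rose by 4.78 ± 0.37 (SE), 27.5-fold, with group means of -2.36 ± 0.55 and 2.43 ± 0.62 (SD, n = 3 each; limma adjusted p = 3.72e-04). The exact two-sided permutation test, with 20 ways to assign the tumours, gave p = 0.1, the smallest that 3 against 3 allows. Its start-site window is the CpG-poor one shown above.

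Slc26a2, a sulfate carrier known from cartilage disease and strongly expressed in colon epithelium, had -0.94, -1.18 and -0.70 in the controls and 0.70, 1.57 and 1.30 in the hypomethylated tumours. It rose by 2.13 ± 0.23 (SE), 4.38-fold (adjusted p = 9.55e-04). As with Slc26a3, control tumour 2 was the lowest of its group and hypomethylated tumour 2 the highest. Slc26a7, an anion exchanger known from stomach and kidney, changed far less. It had -0.09, -0.07 and -0.07 in the control and 0.07, 0.30 and 0.18 in the hypomethylated tumours, a rise of 0.26 ± 0.07 (adjusted p = 0.0290). Its call was lost without any one tumour except hypomethylated replicate 1; in those 5 fits its difference was 0.20 to 0.26 and its adjusted p 0.0677 to 0.0997.

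Slc26a9, a chloride channel of stomach and airway epithelium, went the other way. It had 0.30, 0.70 and 0.27 in the controls and -0.27, -0.42 and -0.45 in the hypomethylated tumours, and fell by 0.80 ± 0.12 (SE), 1.74-fold (adjusted p = 0.00358). Slc26a6, the other chloride-bicarbonate exchanger of the intestinal brush border, had -0.01, -0.04 and 0.07 in the control and 0.04, 0.01 and -0.02 in the hypomethylated tumours. Its groups overlapped, and the 95% interval of its difference, -0.13 to 0.13, leaves out the change of Slc26a3. An uncentred minimum of at least 8, inferred from the numeric step of the deposited values, was not met by Slc26a6. Where signal is near background, a narrow interval cannot show that a gene did not change. Slc26a4, the pendrin gene, lies beside Slc26a3 with the gene Cbll1 between them. It differed by 0.29 ± 0.23 (adjusted p = 0.390): hypomethylated tumour 1 stood at 0.83 and the other 5 tumours between -0.13 and 0.09. The remaining 5 genes, Slc26a1, Slc26a5, Slc26a8, Slc26a10 and Slc26a11, had differences from -0.11 to 0.01 and were not called.

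Among the sodium-proton exchangers and their partners, the Slc9 family, 3 of 9 measured genes were called higher and 2 lower. Slc9a2, an exchanger of the apical membrane (NHE2), had -1.59, -1.91 and -1.14 in the controls and 1.14, 1.64 and 1.43 in the hypomethylated tumours. It rose by 2.95 ± 0.20 (SE), 7.75-fold (adjusted p = 3.05e-04), and its groups were 2.29 apart, 3.00 times the wider range within a group. Slc9a4, the gene next to Slc9a2 on the chromosome and an exchanger known from the stomach, had -0.29, -0.19 and -0.16 against 0.93, 0.16 and 0.29. Hypomethylated tumour 1 was well above the other 2 of its group. Slc9a4 rose by 0.68 ± 0.19 (adjusted p = 0.0312), a call lost without control replicate 1, 2 or 3, with differences of 0.64 to 0.70 and adjusted p-values of 0.0653 to 0.0958, and 0.44 without hypomethylated replicate 1.

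Slc9a3 (NHE3), which carries most of the neutral sodium absorption of the intestine, did not follow Slc9a2. It had 0.13, 0.34 and 0.07 in the controls and -0.83, -0.07 and -0.43 in the hypomethylated tumours, so that the nearest tumours of the groups were 0.14 apart. It fell by 0.62 ± 0.18 (SE), 1.54-fold (adjusted p = 0.0387). This call was lost under quantile normalization and without control replicate 1, 2 or 3 or hypomethylated replicate 3. In these 4 leave-one-out fits the difference was -0.68 to -0.55 and the adjusted p 0.0639 to 0.120. Without hypomethylated replicate 1 the difference was -0.43 and the call was kept (limma adjusted p = 0.0477). Slc9a3r1, whose product NHERF1 anchors NHE3, CFTR and other membrane proteins through PDZ domains, rose by 0.86 ± 0.11, 1.82-fold (adjusted p = 0.00210). It had -0.48, -0.42 and -0.31 against 0.35, 0.71 and 0.31. Its relative Slc9a3r2 differed by -0.23 ± 0.10 (adjusted p = 0.133), with overlapping groups.

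Slc9a9, an exchanger of endosomes, had 0.23, 0.30 and 0.20 in the controls and -0.20, -1.07 and -0.56 in the hypomethylated tumours. It fell by 0.85 ± 0.20 (SE; adjusted p = 0.0165), with hypomethylated tumour 2 the lowest. Without control replicate 1 or control replicate 2 its adjusted p was 0.0511 to 0.0546 at differences of -0.86 to -0.83. The exchangers Slc9a5, Slc9a7 and Slc9a8 were not called, with differences of 0.16, -0.39 and 0.09. That of Slc9a7, which works in the Golgi apparatus, had an adjusted p of 0.0720 in limma.

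**Figure D3:**
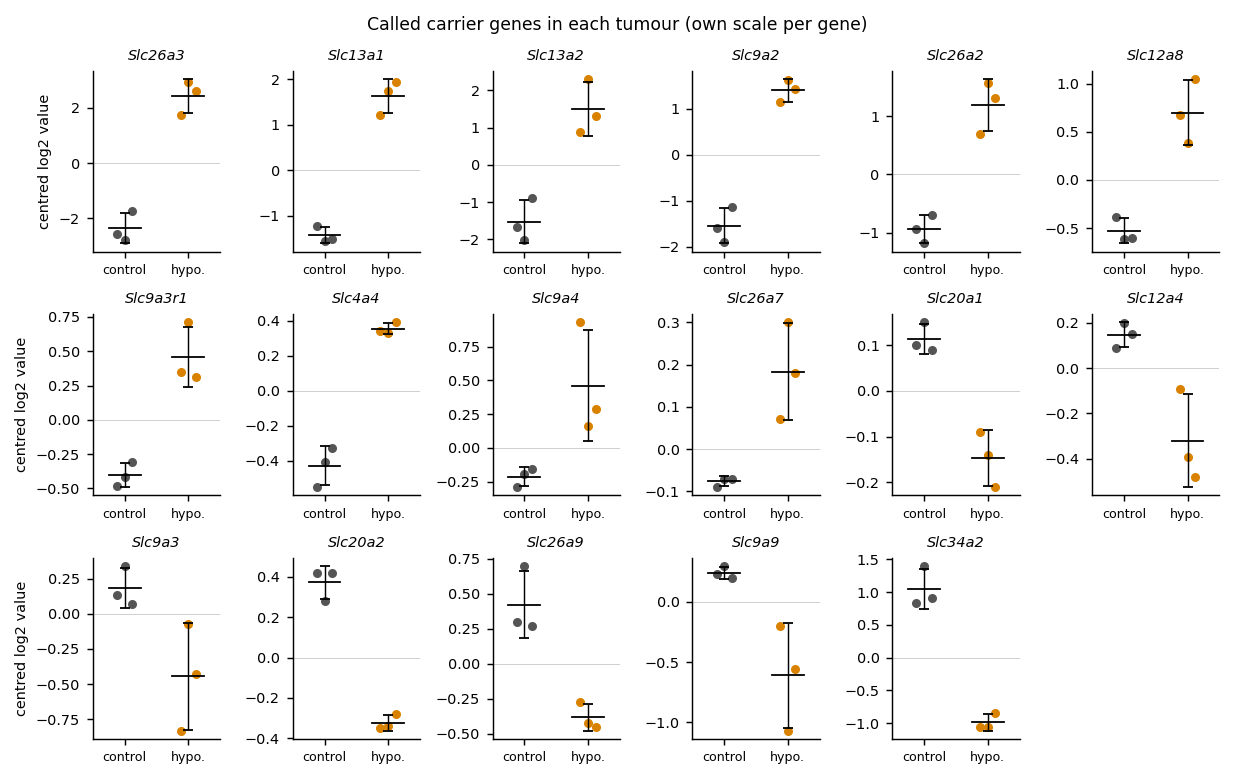
Centred log2 values of the 17 called genes in each tumour, 1 panel a gene with its own vertical scale, for the 3 control tumours (grey) and the 3 hypomethylated tumours (orange, "hypo."), each in the order of replicates 1 to 3. Horizontal lines are group means and error bars 1 SD; the groups do not overlap in any panel, and the gap is narrowest against the spread in Slc9a3.

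The Slc13 family of sodium-coupled sulfate and dicarboxylate carriers had 2 of 5 measured genes called higher and, in limma, 0 lower (0 at an unadjusted p under 0.05 too). Slc13a1, a sodium-sulfate cotransporter, had -1.21, -1.55 and -1.50 in the controls and 1.21, 1.75 and 1.94 in the hypomethylated tumours. It rose by 3.05 ± 0.19 (SE), 8.28-fold (adjusted p = 2.64e-04), with groups 2.41 apart, 3.29 times the wider range within a group. Slc13a2, a carrier of succinate and citrate (NaDC1), had -1.66, -2.03 and -0.88 against 0.88, 2.31 and 1.32. It rose by 3.03 ± 0.41, 8.16-fold (adjusted p = 0.00224), and its tumours were more spread than those of Slc13a1: the ranges within its groups were 1.15 and 1.43, against 0.35 and 0.73. Slc13a3, Slc13a4 and Slc13a5 had differences of -0.13, 0.16 and 0.08 and were not called.

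Of the phosphate carriers, 2 of 2 measured Slc20 genes and 1 of 3 Slc34 genes were called lower. Over all genes 21.3% were called lower and 10.7% higher. Slc34a2 (NaPi-IIb), the main apical phosphate transporter of small intestine and lung, had 0.84, 1.40 and 0.91 in the controls and -1.06, -1.06 and -0.84 in the hypomethylated tumours. It fell by 2.04 ± 0.15 (SE), 4.11-fold (adjusted p = 3.66e-04), and its groups were 1.67 apart, 2.94 times the wider range within a group. Slc20a1 and Slc20a2, which encode the widely expressed carriers PiT1 and PiT2, were called lower too. Slc20a2 had 0.42, 0.28 and 0.42 against -0.35, -0.34 and -0.28 and fell by 0.70 ± 0.06, 1.62-fold (adjusted p = 5.55e-04). Slc20a1 had 0.10, 0.15 and 0.09 against -0.09, -0.14 and -0.21 and fell by 0.26 ± 0.06, 1.20-fold (adjusted p = 0.0147). Its adjusted p was 0.0557 to 0.0572, at differences of -0.26 to -0.24, without control replicate 1 or control replicate 2. The kidney phosphate carriers Slc34a1 and Slc34a3 had differences of 0.09 and 0.11 and were not called.

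In the Slc12 family of cation-chloride cotransporters 1 of 8 measured genes was called higher and 1 lower. Slc12a8, a member whose substrate is debated, had -0.38, -0.61 and -0.60 in the controls and 0.67, 0.38 and 1.05 in the hypomethylated tumours, and rose by 1.23 ± 0.16 (SE), 2.35-fold (adjusted p = 0.00206). Slc12a4 (KCC1), a potassium-chloride cotransporter of most cells, had 0.09, 0.20 and 0.15 against -0.09, -0.39 and -0.48 and fell by 0.47 ± 0.10 (adjusted p = 0.0133). Hypomethylated tumour 1 lay nearest to the controls.

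Slc12a2 (NKCC1), the loading step of chloride secretion, had 0.23, 0.37 and -0.02 in the controls and 0.02, -0.48 and -0.25 in the hypomethylated tumours. Its groups overlapped at control tumour 3 and hypomethylated tumour 1, and its difference of -0.44 ± 0.15 (SE; adjusted p = 0.0610) missed the threshold. Without either of these tumours it was called lower, at -0.56 to -0.54 and adjusted p-values of 0.0192 to 0.0402. Slc12a7 (KCC4) had -0.11, 0.04 and -0.03 against -0.11, 0.03 and 0.03, and its difference of 0.01 had a 95% interval of -0.15 to 0.18. Slc12a1, Slc12a3, Slc12a5 and Slc12a9 had differences from -0.06 to 0.08.

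The Slc4 family, mostly bicarbonate carriers and with Slc4a1ap not a carrier, had 1 of 10 measured genes called higher and, in limma, 0 lower (0 at an unadjusted p under 0.05 too). Slc4a4 (NBCe1), the sodium-bicarbonate cotransporter of the basolateral membrane, had -0.55, -0.41 and -0.33 in the controls and 0.34, 0.33 and 0.39 in the hypomethylated tumours. It rose by 0.78 ± 0.07 (SE), 1.72-fold (adjusted p = 5.75e-04), and the 3 hypomethylated tumours lay within 0.06 of each other. The anion exchanger Slc4a2 (AE2) and Slc4a11 had differences of 0.24 and 0.29, with adjusted p-values of 0.0990 and 0.0824 in limma, and were not called. Slc4a1ap differed by -0.14. The other 6 carriers, among them Slc4a1, the band 3 protein of red cells, had differences from -0.05 to 0.14. The 3 Slc8 genes, sodium-calcium exchangers of heart, brain and muscle, differed by 0.05 to 0.09, and the 5 Slc24 genes, which exchange potassium as well, by -0.27 to 0.25; in limma 0 of the 8 were called, and Slc24a5 alone had an unadjusted p under 0.05. Slc4a3 and Slc8a1 had 2 probe sets each, which differed in sign (-0.18 and 0.12 for Slc4a3, -0.11 and 0.29 for Slc8a1).

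The tumours of a group were not alike in the genes that rose most. In all 6 genes called at least 2-fold higher control tumour 2 was the lowest of its group, and control tumour 3 was the highest in 4. Hypomethylated tumour 1 was the lowest of its group in 5 of the 6, and hypomethylated tumour 2 the highest in 4. These are ranks of 3 tumours and have no test. Some rest on near ties: control tumours 2 and 3 had -0.61 and -0.60 in Slc12a8, and -1.55 and -1.50 in Slc13a1.

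Regulators of these carriers, listed apart, were called in both directions. Of 25 measured genes for kinases, scaffolds and cofactors 8 were called higher and 8 lower, with a median difference of 0.02. Over all genes 10.7% were called higher and 21.3% lower. Lower genes of the list numbered 2 without control replicate 1 or control replicate 2. In these fits 2792 and 3010 of all genes were lower, against 4256 in the main fit. Lower genes of the list numbered 5 without control replicate 3 or hypomethylated replicate 2 and 4 without hypomethylated replicate 3. Higher genes of the list numbered 5 without control replicate 1, where 1407 of all genes were higher, against 2124. Chp2, a cofactor of plasma membrane sodium-proton exchangers, rose by 2.21 ± 0.37 (SE; adjusted p = 0.00476). The kinase gene Sgk2 rose by 2.03 ± 0.19 and Ahcyl2 by 1.52 ± 0.16; Ahcyl1, which encodes IRBIT, an activator of the Slc4a4 product and a relative of Ahcyl2, fell by 0.24 ± 0.06 (adjusted p = 0.0146), a call lost without control replicate 1 or control replicate 2, at -0.23 in both fits. Prkg2, the cGMP-dependent kinase that inhibits NHE3, fell by 0.94 ± 0.09 (adjusted p = 6.43e-04).

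Of 29 measured channels, pumps, water channels and carbonic anhydrases of electrolyte transport 12 were called higher and 2 lower, with a median difference of 0.27. Over all genes 10.7% were called higher and 21.3% lower. The carbonic anhydrase genes Car4, Car13, Car2 and Car1 rose by 4.65 ± 0.29, 2.13 ± 0.15, 1.84 ± 0.12 and 1.80 ± 0.07 (SE; adjusted p = 2.64e-04 for Car4). The genes called lower were Trpv6, a calcium channel (-1.72), and Trpm7 (-0.28). Without control replicate 1, hypomethylated replicate 2 or hypomethylated replicate 3 the lower genes of this list numbered 1, and without control replicate 2 they numbered 4. In the same order of fits 2792, 3222, 3564 and 3010 of all genes were lower, against 4256 in the main fit.

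Cell type markers also differed between the groups. Over all genes 10.7% were called higher and 21.3% lower. Leaving out each tumour in turn gave 2792 to 4270 of all genes lower, against 4256 in the main fit. Within the controls the epithelial list did not follow the ranks above, with means of -0.17, -0.16 and -0.18 in tumours 1 to 3. In hypomethylated tumours 1 to 3 its means were 0.14, 0.30 and 0.20. There tumour 1 was lowest and tumour 2 highest, as in most of the ranks above. Of 8 markers of colon epithelium 6 were called higher and, in limma, 0 lower (0 at an unadjusted p under 0.05 too), with list means of -0.18 to -0.16 in the control and 0.14 to 0.30 in the hypomethylated tumours. Vil1 and Cdh17 rose by 1.02 and 0.63, and Epcam and Krt18 differed by 0.06 and -0.02. Fibroblast markers were called lower in 5 of 8 cases, with list means of 0.12 to 0.51 in the control and -0.57 to -0.12 in the hypomethylated tumours; 8 were lower without hypomethylated replicate 1 and 3 without hypomethylated replicate 3. For smooth muscle 4 of 7 markers were lower, with list means of 0.14 to 0.38 and -0.41 to -0.13. For endothelium 4 of 6 markers were lower and 1, Tek, was higher, with list means of 0.07 to 0.21 and -0.43 to -0.08; 2 were lower without control replicate 2 or 3 or hypomethylated replicate 2 or 3.

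Macrophage markers were lower in 3 of 6, with list means of -0.01 to 0.54 in the control and -0.93 to 0.03 in the hypomethylated tumours, so that the groups overlapped. In limma fits without control replicate 1, 2 or 3 or hypomethylated replicate 2 or 3 the number called was 0, with 3 to 5 at an unadjusted p under 0.05, and without hypomethylated replicate 1 it was 6. Of the erythroid and of the enteric neuron and glia markers 1 of 3 and 1 of 6 were lower, and 2 of the latter without control replicate 2. The share called lower over all genes was 21.3% (4256 genes) in the main fit, and 2792 to 4270 genes were lower without 1 tumour. Centred values do not show directly which markers are near background. An uncentred minimum of at least 8 was inferred from the numeric step of the deposited values. It was met by 0 of 3 erythroid, 0 of 6 neuron and glia, 3 of 7 smooth muscle and 7 of 8 fibroblast markers. All 8 epithelial, 6 endothelial and 6 macrophage markers met it. A marker that is low in 1 group fails it too. The part of cell composition in the differences of the carriers was not tested.

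**Figure D4:**
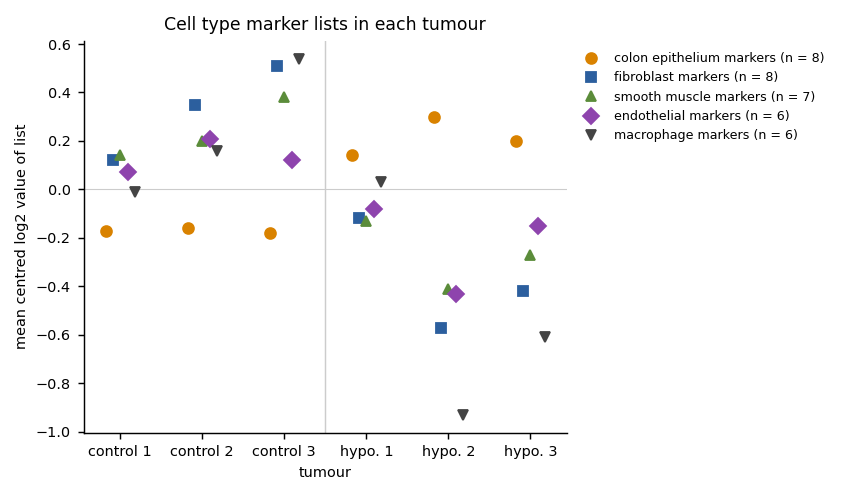
Mean centred log2 value (vertical axis) of 5 lists of cell type markers in each tumour (control 1 to 3, then hypomethylated 1 to 3, "hypo."), with the number of genes in each list. Epithelial markers are higher in all 3 hypomethylated tumours, up to 0.30, and the fibroblast, smooth muscle and endothelial lists are lower in them; macrophage markers overlap between control tumour 1 and hypomethylated tumour 1.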

How the data were processed

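RNA from 6 tumours was biotin-labelled with an Affymetrix kit and hybridised to arrays of the mouse Gene 1.0 ST type, per the labels. The authors deposited log2 values, 1 per probe set and array, for 28856 probe sets. No source used here gives the summary method, the normalization or the log base; base 2 was inferred. Of the deposited probe sets 100% have a median within 1e-06 of 0 over the arrays, so the main fit had no filter on intensity and no variance trend. Only an alternative fit kept genes by a minimum inferred from the numeric step of the values. Folds against a group near the detection limit understate the change. Arrays carry no counts, and 6 arrays limit the precision.

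Probe sets with 1 gene symbol in the platform annotation (21789; 1621 had several, 5446 none) were averaged per gene, with symbols checked by Entrez number against RefSeq (19856 of 19938 genes matched). limma's lmFit and eBayes (no trend, no block, all 6 tumours) were fitted over all 19938 genes, two-sided, with 3.02 prior degrees of freedom. The script was tested on simulated data. Members and lists were chosen with earlier results of these data known. The text accounts for every member by family, gives tumour values for all 17 called members and for Slc12a2, Slc12a7 and Slc26a6, and names up to 4 genes of a context list by smallest p, with list members named otherwise (Ahcyl1, Epcam, Krt18, Trpv6, Trpm7) chosen after their values were seen. Alternatives were array weights, robust eBayes, quantile normalization, median centring of each array, the replicate number as a block, other thresholds, genes with 1 probe set, genes with an inferred uncentred minimum of at least 8 (from the numeric step of the deposited values), and leaving out each tumour. R 4.3.3, limma 3.58.1, Python 3.11.15 and matplotlib 3.10.9 were used.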

Additional observations from a re-analysis of the deposited data

How the results depend on the processing

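Of the 17 called genes 12 kept their direction and their call under every alternative fit in which they were tested (other thresholds apart); Slc20a1, Slc26a7, Slc9a3, Slc9a4 and Slc9a9 lost theirs in some, and none of the 17 changed sign in them. Slc12a7 and Slc26a6, near 0 and not called, ran from -0.03 to 0.09 and from -0.02 to 0.03. Leaving out each tumour in turn gave 8 to 11 members called higher and 4 to 9 lower, and over all genes 1407 to 2323 higher and 2792 to 4270 lower. At an adjusted p under 0.01, 8 members were higher and 3 lower, and over all genes 1192 higher and 2319 lower. Among genes with an inferred uncentred minimum of at least 8, 20 members were tested, of which 6 were called higher and 7 lower (16.3% and 37.2% of 10282 genes); a gene that is low in 1 group cannot enter that fit, and Slc26a3, Slc13a1, Slc13a2, Slc34a2 and Slc26a7 did not. With the replicate number as a block 8 members were higher and 6 lower, Slc20a1, Slc26a7 and Slc9a4 losing their calls, and over all genes 1543 were higher and 2714 lower. Deviations of same-numbered tumours from their group means correlated at -0.291, -0.311 and -0.221 over genes, so the numbers were not taken to pair the tumours. Array weights added Slc12a2, Slc24a5, Slc4a11 and Slc9a7. They gave control tumour 1 a weight of 7.69 and the others 0.515 to 0.986, so that this tumour dominated the control group in that fit. Unless stated, the cause was not tested. For genes near background, signal limits what a difference can show, and these centred values do not tell directly which they are.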
